A study of Drosophila melanogaster with 6 samples.

Results

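The Imd pathway is the fly's main defence route against bacteria whose cell wall carries diaminopimelic acid, and 10 of its genes and of the peptidoglycan receptor genes were followed in JQ1-treated S2-DRSC cells. The genes were taken by FlyBase symbol as a fixed list, made of the receptors PGRP-LC, PGRP-SA and PGRP-SD, the amidase PGRP-LB, the inhibitor pirk, the signalling components imd, Dredd, Tak1 and key, and the transcription factor Rel. All 10 were found by their current identifier among the 14869 gene identifiers of the count files. S2-DRSC is a cultured Drosophila melanogaster line with blood cell features. JQ1, an inhibitor of BET bromodomains (in the fly, those of the protein FSH), was given at 10 µM for 1, 2, 4 or 20 h, and its solvent DMSO alone was given for 1 or 20 h. The question was how gene expression responds over time when FSH is inhibited, and each treatment and time was 1 polyadenylated RNA library. The labels name no immune stimulus for these libraries.

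In this pathway, PGRP-LC is a receptor at the cell surface that binds peptidoglycan and recruits the adaptor Imd. Imd assembles with Fadd and the caspase Dredd, the kinase Tak1 is activated, and the IKK complex, in which Kenny (the product of key) is the regulatory subunit, acts on Relish (the product of Rel). Relish is cut by Dredd, and its freed part enters the nucleus and turns on antimicrobial peptide genes. Signalling is held back by PGRP-LB, an enzyme that cuts peptidoglycan, and by Pirk, which interferes with the receptor and Imd. PGRP-SA and PGRP-SD are secreted recognition proteins best known for feeding the other immune route of the fly, the Toll pathway.

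The libraries held 26769735 to 29823608 reads assigned to genes with JQ1 and 24547077 to 27786072 with DMSO. Counts were divided by a factor set by an index of the 100 highest-count DMSO genes, which held 0 of the 10 genes, and the quotient is called a scaled count. On this index scale most genes lay lower with JQ1, and the median change over the 8690 tested genes, on the log2 scale, was, in order of time, -0.54, -0.65, -0.81 and -0.59. Many changes, but not all, are therefore also given minus that median, as the change relative to all genes. Of 11 matched blood cell markers, 10 averaged at least 100 scaled counts, and the summed level of the list ran from 612293 to 1087222 with JQ1 and from 654039 to 666512 with DMSO. Markers of fat body, nerve, muscle and epithelium summed to 55.1, 378, 77.4 and 917 scaled counts at most with JQ1 and to 41.6, 664, 104 and 1428 at most with DMSO, with no marker at 0 in all libraries.

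Expression of the 10 genes covered a wide range. Per kilobase of exon (exon lengths from the release 6 annotation), the order in DMSO was key, PGRP-SA, Rel, imd, Tak1, Dredd, PGRP-LC, PGRP-LB, PGRP-SD and pirk. The DMSO mean was 4813 scaled counts per kilobase for key, 1935 for Rel, 382 for PGRP-LC and 4.83 for pirk. All neighbours in this order were separated in the DMSO libraries except Dredd and PGRP-LC, whose ranges overlapped. At JQ1 20 h the order per kilobase had changed, with PGRP-SA first at 9425, Rel next at 4696, PGRP-SD in place 6 at 379 and PGRP-LB last at 9.59. Of all tested genes with an exon length, 95.3% were below key and 2.42% below pirk in DMSO. Reads of these genes could be shared or lost where exons overlap a gene on the other strand, since the strand setting of the counting was not stated. In the release 6 annotation the overlap was 40 bases for imd, 35 for PGRP-SD, 29 for key and 12 for Dredd.

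**Figure D1:**
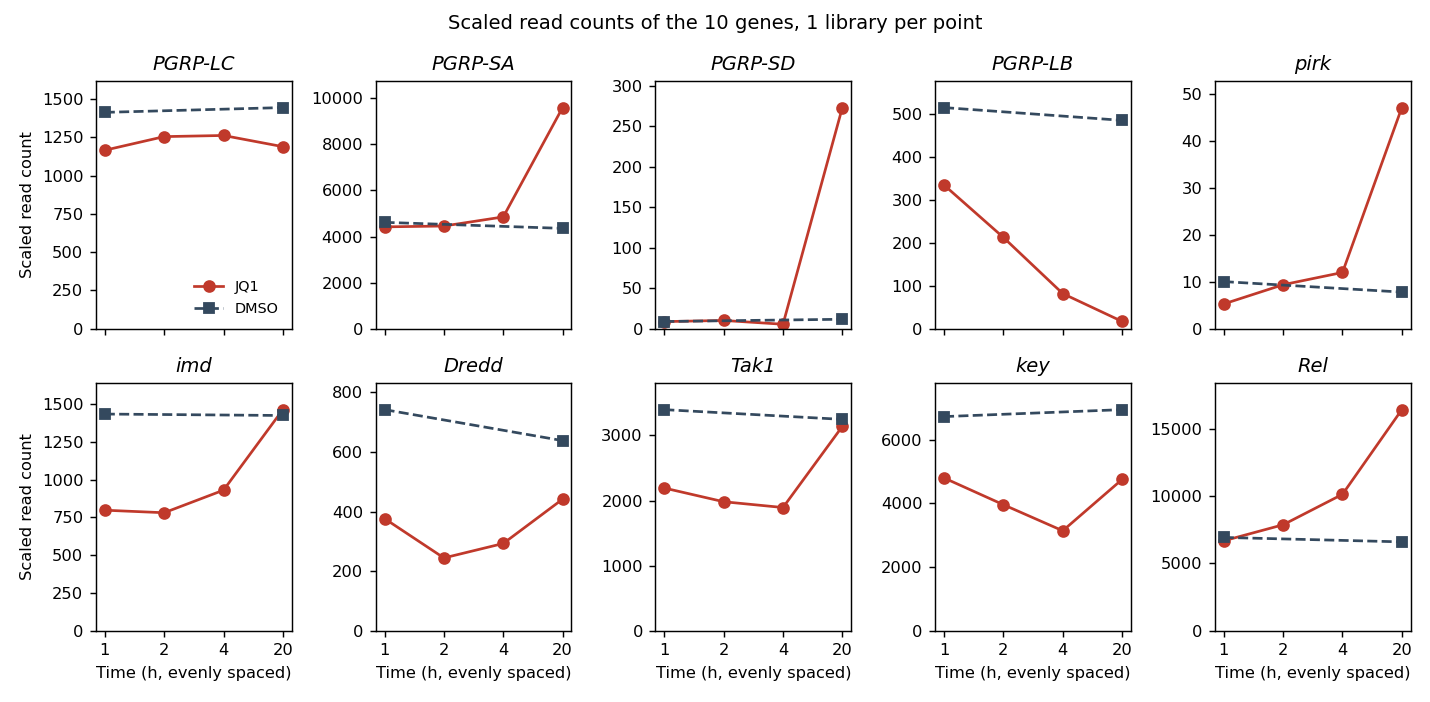
Scaled read counts (vertical axis, from 0) of the 10 genes at 1, 2, 4 and 20 h of JQ1 (circles) and 1 and 20 h of DMSO (squares), with evenly spaced times and 1 library per point. PGRP-SA, PGRP-SD, pirk and Rel had their highest value at JQ1 20 h, PGRP-LB was lower at each later time, and imd, Dredd, Tak1 and key were lowest at 2 or 4 h.

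With JQ1 set against DMSO libraries on the index scale, Dredd and key were called lower and no gene of the list was called higher. These calls came from edgeR's quasi-likelihood test (adjusted p under 0.05 over all tested genes), in which 2 of 10 genes were lower where 44.3% of all tested genes were, and 0 of 10 were higher where 1.43% were. At an unadjusted p under 0.05 these counts were 3 (with Tak1) and 0, and the share of all tested genes at that limit was not counted. The Wald test of DESeq2 called 2 of 10 lower, where it called 49.99% of all tested genes, and 0 higher, where it called 1.91%. In this cell population, fewer cells with a transcript and less of it per cell cannot be told apart. The fit treats the 4 JQ1 libraries as replicates, so its spread includes the changes with time described below. Both calls were lost on a scale set by all genes. Leaving out JQ1 2 h gave an adjusted p in edgeR of 0.0627 for key and 0.0534 for Dredd, and leaving out JQ1 4 h gave 0.0571 for Dredd. With either DMSO library left out edgeR called 0 of all tested genes, so those fits could call neither gene. The log2 fold change was then -0.74 without DMSO 1 h and -0.69 without DMSO 20 h for key, and -0.91 and -1.13 for Dredd.

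A second fit was scaled on all genes (DESeq2 median-of-ratios factors), so that the median gene stayed at about 0. On this all-gene scale edgeR called 0 of 10 lower (5.55% of all tested genes) and 0 of 10 higher (5.30%). At an unadjusted p under 0.05, 3 were higher (PGRP-LC, PGRP-SA and Rel) and 0 lower. The share of all tested genes at this looser limit was not counted, so these 3 cannot be set against it. The Wald test of DESeq2 called PGRP-SA and Rel higher, 2 of 10 where it called 12.7% of all tested genes. The 10 genes had a median in edgeR, on the log2 scale, of -0.38 on the index scale, beside -0.63 for all tested genes, and 0.26 on the all-gene scale, beside 0.00044. These medians include PGRP-SD and pirk, which reached the minimum mean for testing only through JQ1 20 h.

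Much of this outcome depended on the late library. Without JQ1 20 h, edgeR called imd, Dredd, Tak1 and key lower on the index scale, 4 of 10 where 64.3% of all tested genes were lower, and 0 of 10 higher where 2.46% were. The same libraries gave, scaled on all genes, Rel, PGRP-SA and PGRP-LC as higher, 3 of 10 where 19.0% of all tested genes were higher, and 0 of 10 as lower where 17.6% were. The log2 fold change there was 0.96 for Rel, 0.69 for PGRP-SA and 0.45 for PGRP-LC, with adjusted p in edgeR of 0.0244, 0.0122 and 0.0360. Without JQ1 1 h, Rel alone of the 10 passed on that scale (1.41, adjusted p of 0.0297 in edgeR), where 10.0% of all tested genes were higher.

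**Figure D2:**
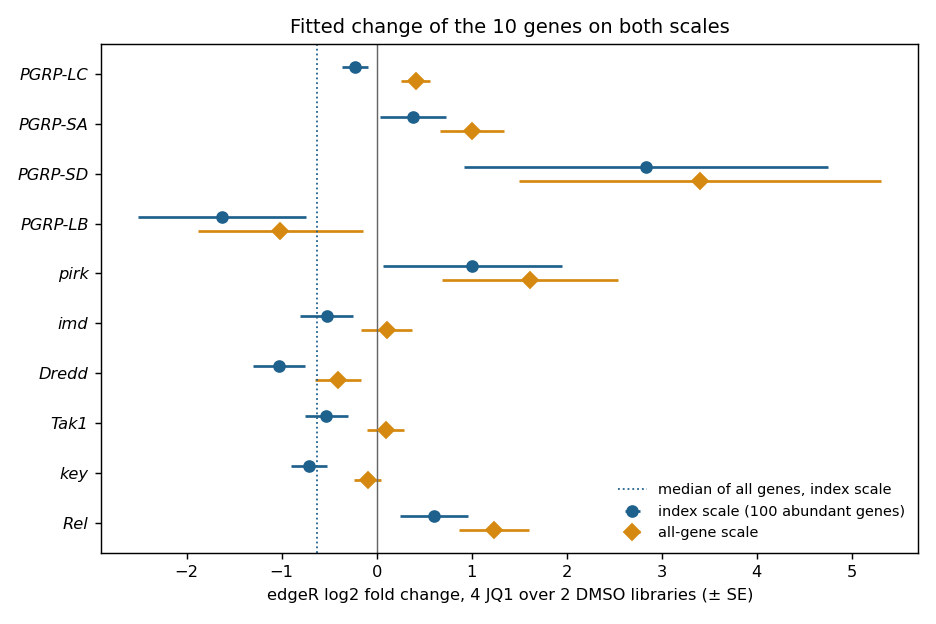
Log2 fold change of each of the 10 genes in edgeR, 4 JQ1 over 2 DMSO libraries, with bars of ± 1 SE, on the index scale (circles) and the all-gene scale (diamonds). The dotted line is the median of all tested genes on the index scale (-0.63). The signs of PGRP-LC, imd and Tak1 differ between the scales, and those of PGRP-SD, PGRP-LB, pirk, Dredd, key, PGRP-SA and Rel do not.

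PGRP-LC, the receptor that starts the pathway, kept a nearly flat level. It had 1166, 1255, 1263 and 1189.6 scaled counts in the JQ1 libraries (here and below in order of time), against 1414 and 1445 with DMSO (1 h, then 20 h). All JQ1 libraries lay below both DMSO libraries on the index scale and above both on the all-gene scale. In edgeR the log2 fold change was -0.23 ± 0.14 (SE) on the index scale and 0.41 ± 0.15 (SE) on the all-gene scale, with adjusted p of 0.201 and 0.111. Its highest value relative to all genes was 0.63 at 4 h, where 82.7% of tested genes had a lower change. The receptor's splice forms, which differ in the peptidoglycan they bind, are not separated by counts per gene.

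PGRP-SA, which binds lysine-type peptidoglycan in the Toll route, changed little for 4 h on the index scale and was high at 20 h. It had 4419, 4456, 4851 and 9595 scaled counts with JQ1, against 4615 and 4353 with DMSO. The 20 h library lay at 2.14-fold of the DMSO mean, and the 4 h library was above both DMSO libraries by a small margin. At 20 h the log2 fold change was 1.10 (95% counting interval 1.05 to 1.14), or 1.69 relative to all genes, and 96.2% of tested genes had a lower one. These intervals come from the exact binomial split of the reads and cover counting error only, as each time is 1 library. In edgeR over all times the log2 fold change was 0.38 ± 0.35 (SE) with an adjusted p of 0.382.

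PGRP-SD, a secreted recognition protein that helps other receptors respond, was almost absent except in the last library. It had 10, 12, 6 and 273 reads with JQ1, against 8 and 9 reads with DMSO for 1 and 20 h. In scaled counts this was 8.80, 10.2, 5.53 and 273 with JQ1, against 8.91 and 11.7 with DMSO. Up to 4 h no JQ1 library left the DMSO level by more than the counting interval. At 20 h the log2 fold change was 4.60 (4.04 to 5.55) against both DMSO libraries and 4.43 (3.60 to 5.69) against DMSO 20 h alone, and only 6 of 8690 tested genes had a higher value in the first comparison. The edgeR log2 fold change over all times, 2.83 ± 1.91 (SE), did not pass (adjusted p of 0.248). The gene met the minimum mean of 10 scaled counts only through JQ1 20 h, since its mean over the other libraries was 9.03.

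PGRP-LB, the amidase that degrades peptidoglycan and so limits Imd signalling, was lower at every later time. It had 335, 213, 82.0 and 17.0 scaled counts with JQ1, against 516 and 486 with DMSO. Each JQ1 library lay below both DMSO libraries and below the JQ1 library before it, an order that 13.3% of tested genes shared and no other gene of the list. The log2 fold change was -0.58, -1.23, -2.60 and -4.80 at the 4 times, the last with a counting interval from -5.67 to -4.19 and resting on 17 reads. Relative to all genes it was -0.04, -0.58, -1.79 and -4.21, so that the first hour matched the median gene and the later times did not. At 20 h, 24 of 8690 tested genes had a lower value. In edgeR the log2 fold change was -1.63 ± 0.88 (SE), with an adjusted p of 0.162 on the index scale and 0.442 on the all-gene scale.

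The inhibitor pirk was at the edge of detection and was highest in the last library. It had 6, 11, 13 and 47 reads with JQ1, against 9 and 6 reads with DMSO. In scaled counts this was 5.28, 9.37, 12.0 and 47.1 with JQ1, against 10.03 and 7.80 with DMSO, and the groups overlapped at 2 h. At 20 h the log2 fold change was 2.28 (counting interval 1.52 to 3.33), or 2.87 relative to all genes, while the intervals at 1, 2 and 4 h all held 0. In edgeR it was 1.01 ± 0.94 (SE) with an adjusted p of 0.393. This gene too passed the minimum mean only through JQ1 20 h, with a mean of 8.89 over the other libraries.

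The adaptor imd was low for 4 h and back at the DMSO level by 20 h. It had 798, 781, 930.2 and 1463 scaled counts with JQ1, against 1434 and 1424 with DMSO. The first 3 JQ1 libraries lay far below the DMSO pair, which differed from each other by less than the counting interval, and the last lay just above it. The log2 fold change by time was -0.84, -0.87, -0.62 and 0.03, the last with a counting interval of -0.06 to 0.13. Relative to all genes it was -0.30, -0.22, 0.19 and 0.62. In edgeR over all times it was -0.53 ± 0.28 (SE) with an adjusted p of 0.156, and without JQ1 20 h it was -0.77 with an adjusted p of 0.00415.

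Dredd, the caspase that cuts Imd and Relish, had the lowest early log2 fold change of the signalling components. It had 376, 244, 293 and 442 scaled counts with JQ1, against 742 and 638 with DMSO. All JQ1 libraries lay below both DMSO libraries, and 2 h was the lowest. The log2 fold change of -1.49 (counting interval -1.70 to -1.32) at 2 h was -0.85 relative to all genes, where 13.9% of tested genes had a lower one. The DMSO libraries of this gene differed by -0.22 (counting interval -0.39 to -0.05) between 20 h and 1 h. In edgeR the log2 fold change was -1.03 ± 0.27 (SE) with an adjusted p of 0.0230 on the index scale, and -0.40 ± 0.24 (SE) with an adjusted p of 0.278 on the all-gene scale.

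Tak1, the kinase that links Imd to the IKK complex and to JNK signalling, was low for 4 h and near the DMSO level at 20 h. It had 2192, 1982, 1893 and 3138 scaled counts with JQ1, against 3396 and 3246 with DMSO. The 20 h library was at 0.945-fold of the DMSO mean. The earlier libraries gave a log2 fold change of -0.60, -0.74 and -0.81, which relative to all genes was -0.06, -0.10 and -0.0037, and the last gave 0.51 relative to all genes. In edgeR it was -0.53 ± 0.22 (SE) with an adjusted p of 0.0876, and without JQ1 20 h -0.72 with an adjusted p of 0.00216.

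The IKK subunit gene key had the highest DMSO level per kilobase of the list and was lower at each time until 4 h. It had 4802, 3962, 3143 and 4755 scaled counts with JQ1, against 6730 and 6948 with DMSO. The JQ1 and DMSO libraries did not overlap. The mean was 4165 ± 783 with JQ1 (SD, n = 4) and 6839 ± 154 with DMSO (SD, n = 2), a log2 fold change in edgeR of -0.72 ± 0.19 (SE) with an adjusted p of 0.0226. Relative to all genes the changes at the 4 times were only 0.03, -0.14, -0.31 and 0.07, and on the all-gene scale the fitted value was -0.09 ± 0.14 (SE) with an adjusted p of 0.674.

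Rel, which encodes the NF-κB factor at the end of the pathway, was higher at each later time. It had 6686, 7878, 10141 and 16431 scaled counts with JQ1, against 6936 and 6607 with DMSO. The 1 h library lay inside the DMSO range and the later libraries above it. The log2 fold change began at -0.02 (counting interval -0.06 to 0.02) and was then 0.22, 0.58 and, in the last library, 1.28 (1.24 to 1.31). Relative to all genes it was 0.52, 0.86, 1.39 and 1.87, with 90.2%, 91.6%, 95.9% and 97.3% of tested genes lower. On the all-gene scale all JQ1 libraries lay above both DMSO libraries, with 7313, 9150.4, 13055 and 18057 against 5266 and 4842. In edgeR the log2 fold change was 0.60 ± 0.35 (SE) with an adjusted p of 0.192 on the index scale, and 1.23 ± 0.36 (SE) with an adjusted p of 0.0710 on the all-gene scale.

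**Figure D3:**
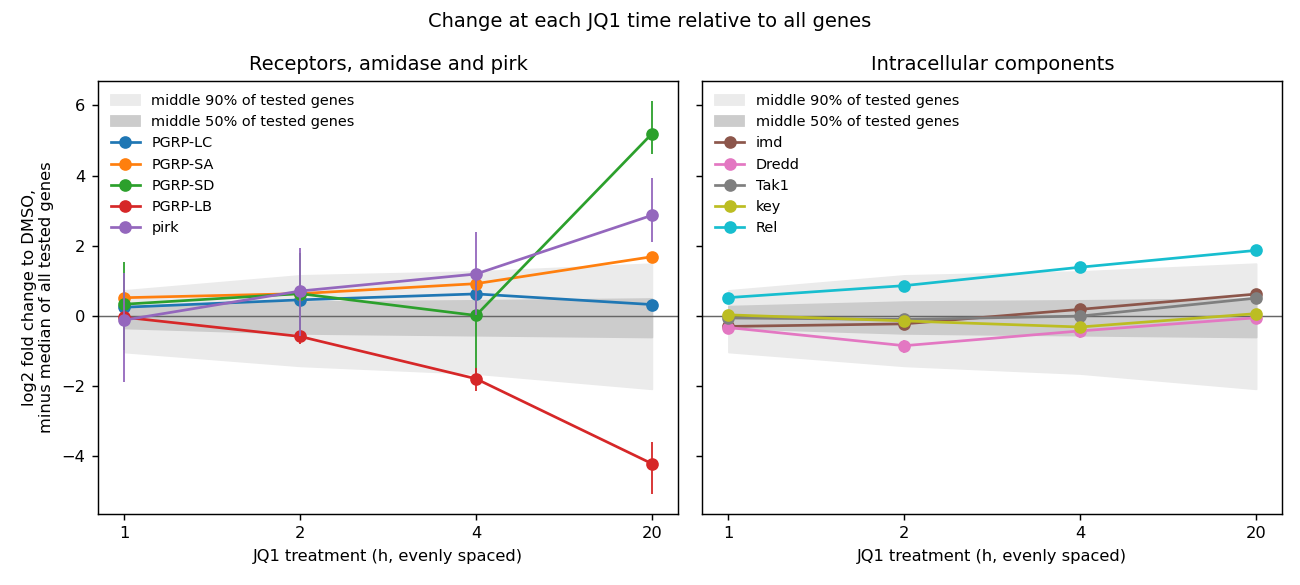
Log2 fold change to the mean of both DMSO libraries, minus the median of all 8690 tested genes (vertical axis), at each JQ1 time (evenly spaced), with 95% counting intervals as vertical lines. Grey bands hold the middle 50% and 90% of tested genes. Rel, PGRP-SA, PGRP-SD and pirk lie above the outer band at 20 h (1.87, 1.69, 5.19 and 2.87), Rel also at 4 h (1.39), and PGRP-LB lies below it at 4 and 20 h (-1.79 and -4.21), while imd, Dredd, Tak1 and key lie between -0.85 and 0.62 at all times.

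Counted at single times with no replicate check, the list split further with treatment time. At 1 h, 0 of 10 genes were below 50% of the DMSO mean (19.4% of all tested genes) and 0 above 200% (0.875%). At 2 h, PGRP-LB and Dredd were below 50% (31.1% of all tested genes) and 0 genes above 200% (2.36%). At 4 h, PGRP-LB, Dredd and key were below 50% (39.5%) and 0 genes above 200% (2.00%). At 20 h, PGRP-LB alone was below 50% (31.4%), and 4 of 10 genes, PGRP-SA, PGRP-SD, pirk and Rel, were above 200% (4.40%). As PGRP-SD and pirk met the minimum mean only through that library, the count without them was 2 of 8. Between the DMSO libraries, 20 h over 1 h, 0 of 10 genes passed either limit (0.357% and 0.437% of all tested genes), and the values ran from -0.33 for pirk to 0.36 for PGRP-SD.

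Past 2-fold relative to all genes, 0 of 10 genes were lower (5.32% of all tested genes) or higher (2.66%) at 1 h, and 0 were lower (10.7%) or higher (6.63%) at 2 h. The count at 4 h was 1 lower (PGRP-LB, 13.2% of all tested genes) and 2 higher (Rel and pirk, 7.81%). There pirk rested on 13 reads, against 9 and 6 with DMSO. Before the median was subtracted, the counting interval of its change held 0. At 20 h it was again 1 lower (PGRP-LB, 16.0%) and 4 higher (PGRP-SA, PGRP-SD, pirk and Rel, 10.1%), or 2 of 8 higher without PGRP-SD and pirk. The median of the 10 genes relative to all genes was -0.0024, 0.18, 0.10 and 0.57 at 1, 2, 4 and 20 h, and -0.12 between the DMSO libraries. The value at 20 h includes PGRP-SD and pirk, which passed the filter only through that library. Between the DMSO libraries 0 of 10 genes passed 2-fold relative to all genes in either direction (0.460% and 0.345% of all tested genes).

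By library, all 4 JQ1 values lay below both DMSO values on the index scale for 5 of 10 genes (PGRP-LC, PGRP-LB, key, Dredd and Tak1), where 67.9% of all tested genes did so, and above both for 0 of 10 (3.74%). Over 1, 2 and 4 h alone, imd joined them, making 6 of 10 where 79.4% of all tested genes did so. On the all-gene scale 0 of 10 lay below throughout (27.5%) and 3 of 10, PGRP-LC, PGRP-SA and Rel, lay above (25.7%), and Dredd alone lay below over 1, 2 and 4 h (34.3%).

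The step from 4 h to 20 h was upward for 8 of 10 genes, all but PGRP-LC and PGRP-LB, where 66.3% of all tested genes moved upward on the index scale and 50.7% on the all-gene scale (the same 8 genes on both). For imd, Dredd, Tak1 and key the log2 step was 0.65, 0.59, 0.73 and 0.60, or 0.42, 0.35, 0.49 and 0.36 relative to all genes. For PGRP-SD it was 5.39, and 2 of 8690 tested genes had a larger one. At 20 h, 5 of 10 genes were above all other libraries on the index scale (PGRP-SA, PGRP-SD, pirk, Rel and, by a small margin, imd), as were 16.0% of all tested genes. On the all-gene scale it was 6 of 10, with Tak1, as were 28.5%. PGRP-SD and pirk met the minimum mean only through JQ1 20 h, so the filter favoured a high value there. Apart from them, the upward genes were PGRP-SA, Rel, imd, Dredd, Tak1 and key. Those above all other libraries were PGRP-SA, Rel and imd, with Tak1 on the all-gene scale. Against the DMSO library of the same duration, the values at 20 h were 1.14 for PGRP-SA, 1.31 for Rel, 2.45 for pirk and -4.76 for PGRP-LB. Of the 11 blood cell markers, 4 lay above both DMSO libraries at JQ1 20 h (Hml, NimC1, vkg and Col4a1), 6 lay below both (srp, ush, crq, eater, Pvr and Pxn) and lz lay between them. Named after their values were seen, Hml had 129702 scaled counts there, against 12722 and 13855 with DMSO, and Pxn had 145069, against 218431 and 223452 with DMSO. The part of these markers in the results was not tested.

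Antimicrobial peptide genes, the targets of Relish, were measured in the same libraries. At 20 h, 8 of 10 tested peptide genes of a list of 14 were above 200% of DMSO, where 4.40% of all tested genes were, and 1 of the 8, Mtk, met the minimum mean only through that library. Among the others DptB, named after its values were seen, had 1523 scaled counts at JQ1 20 h, against 7.80 and 6.50 with DMSO. In edgeR over all times 0 were lower (44.3% of all tested genes) and 0 higher (1.43%) on the index scale. At an unadjusted p under 0.05 there were 1 and 0, with no share of all tested genes counted at that limit. The Wald test of DESeq2 called 1 lower (4344 of all 8690 tested genes) and 0 higher (166 of 8690). The lower gene was CecB in both. Between the DMSO libraries, AttA and Mtk were above 200% at 20 h over 1 h (0.437% of all tested genes). CecB and CecC, also named after their values were seen, were not above 200% at JQ1 20 h. CecB had 121 scaled counts there against 163 and 173 with DMSO, and CecC 208 against 275 and 288. On the all-gene scale all 4 JQ1 libraries lay above both DMSO libraries for 8 of 10 peptide genes, Mtk among them (25.7% of all tested genes).

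The other peptidoglycan recognition genes did not move as one. Of 13 genes with a PGRP symbol, 8 were tested, 1 was lower (PGRP-LD) and 1 was higher (PGRP-LF) in edgeR on the index scale, where 44.3% and 1.43% of all tested genes were. PGRP-LD was close to the minimum mean, at 10.6 scaled counts. It had 5, 4, 9 and 4 reads with JQ1 against 19 and 17 with DMSO, and was not tested on the all-gene scale. PGRP-LF, a membrane protein that blocks PGRP-LC, had 685, 896, 964 and 1315 scaled counts with JQ1, against 447 and 469 with DMSO. All JQ1 libraries lay above both DMSO libraries, and the log2 fold change of 1.08 ± 0.28 (SE) had an adjusted p in edgeR of 0.0228 on the index scale and 0.0264 on the all-gene scale, where it was 1.71. On the index scale the adjusted p in edgeR was 0.0527 without JQ1 2 h and 0.0514 without JQ1 4 h, and no gene could be called without either DMSO library. Chromosome 3L holds PGRP-LA, PGRP-LC and PGRP-LF next to each other in that order in the release 6 annotation. PGRP-LA, named here after its values were seen, had 431, 331, 255 and 166 scaled counts with JQ1 against 556 and 530.2 with DMSO, and did not pass in edgeR (-0.88, adjusted p of 0.0845). At 20 h the log2 fold change of these neighbours was -1.70 for PGRP-LA, -0.26 for PGRP-LC and 1.52 for PGRP-LF. PGRP-LE, also named after its values were seen, an intracellular receptor for the same peptidoglycan, was low, with 59.9 to 118 scaled counts with JQ1 against 104 and 120.3 with DMSO.

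**Figure D4:**
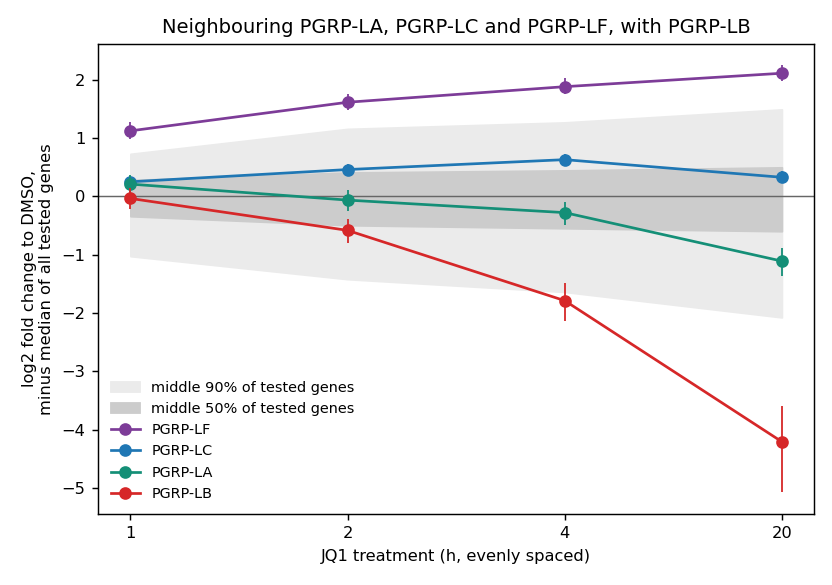
Log2 fold change to DMSO minus the median of all tested genes (vertical axis) for the neighbours PGRP-LF, PGRP-LC and PGRP-LA and for PGRP-LB, at each JQ1 time (evenly spaced), with 95% counting intervals as vertical lines and grey bands for the middle 50% and 90% of tested genes. PGRP-LF lies above the outer band at every time, PGRP-LC between 0.25 and 0.63, and PGRP-LA reaches -1.11 and PGRP-LB -4.21 at 20 h.

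A wider list of 34 pathway genes, with the partners, ubiquitin enzymes, inhibitors and JNK arm of Imd signalling, was described in the same manner. Of the 27 tested, 16 were lower and 1 (PGRP-LF) was higher in edgeR on the index scale, beside 44.3% and 1.43% of all tested genes. Their median log2 fold change was -0.49, or 0.15 above the median of all tested genes. The count of lower genes was 22 without JQ1 20 h (64.3% of all tested genes), 8 without JQ1 2 h (25.3%) and 0 without either DMSO library, when 0 of all tested genes were called. On the all-gene scale 26 were tested, of which 0 were lower (5.55% of all tested genes) and 2 were higher (5.30%), PGRP-LF and, named after its values were seen, Uev1A. There 2 genes were lower and 4 higher at an unadjusted p under 0.05, with no share of all tested genes counted at that limit. The Wald test of DESeq2 called 0 lower (12.7% of all tested genes) and 4 higher (12.7%).

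Among genes of the wider list averaging 50 or more scaled counts, the 3 largest falls were in CYLD, casp and dnr1, which code for inhibitors of the pathway. CYLD, a deubiquitinase, had 762, 456, 497 and 867 scaled counts with JQ1 against 1557 and 1672 with DMSO, a log2 fold change in edgeR of -1.32 ± 0.29 (SE) with an adjusted p of 0.0128. The gene casp, whose product Caspar holds Relish back, had 1945, 1616, 1359 and 2289 against 3853 and 3853, and dnr1, an inhibitor of Dredd, had 89.7, 78.3, 62.6 and 44.1 against 144 and 225. Their log2 fold changes were -1.10 and -1.42, with adjusted p in edgeR of 0.00956 and 0.0178. On the all-gene scale the values of CYLD, casp and dnr1 were -0.70, -0.48 and -0.78, and their adjusted p in edgeR were 0.0978, 0.0992 and 0.159. Among partners of the 10 genes, named after their values were seen, Fadd and IKKbeta also had their highest JQ1 value at 20 h, 879 against 672 and 708 with DMSO, and 2964 against 2741 and 2799, while Tab2, the partner of Tak1, had its lowest there, at 959 against 2099 and 2457 with DMSO.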

How the data were processed

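Single-end RNA-seq reads of 6 libraries were aligned by the authors with TopHat to the BDGP5 genome with Ensembl release 64 gene models. They counted uniquely mapped reads per gene with HTSeq-count. Tool versions and the strand setting are not given in the sources used here. The deposited values were raw counts for 14869 identifiers. The 5 lines naming no gene made up 21.9% to 27.3% of records and were left out. Symbols came by identifier from gene tables of release 6 and matched 13523 identifiers. Of the lists, Traf6, Tl, Drs, PPO1 and Mhc were not matched and were not analysed here. No release 5 coordinates and no sequences are given.

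Following the authors' choice, counts were scaled on the 100 genes most abundant in DMSO. Each library's factor was the median ratio to the geometric mean over libraries. The 8690 genes averaging 10 or more scaled counts were tested. JQ1 (4 libraries) was compared with DMSO (2 libraries) by edgeR 4.0.16 (R 4.3.3), quasi-likelihood, two-sided, with Benjamini-Hochberg adjustment over all tested genes and a threshold of 0.05. The SE is the log2 fold change divided by the square root of F. Where nothing states separate cultures, p-values measure only the spread between these libraries. Log2 fold changes at single times used a pseudocount of 1, which understates changes of low genes, and carry 95% counting intervals computed without it. The script was tested on simulated data. Alternatives were 6 other scalings, 2 other filters, a pseudocount of 5, leaving out each library, treatment duration as a block and DESeq2 1.42.0.

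The 10 genes and the lists were chosen with earlier results of these data known. Named genes were the 10 in full, up to 4 called genes of each list averaging 50 or more scaled counts, by size of change, and for each of the 10 the gene nearest in pattern.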

Additional observations from a re-analysis of the deposited data

Results flagged for a closer look

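Among the 4 JQ1 libraries, which differ in treatment time, the 20 h library stood far from the other 3 in scaled counts for PGRP-SA (9595), PGRP-SD (273) and pirk (47.1). Chance alone singles out about 1 in 20 groups by this measure, a rate that assumes like libraries. It does not apply directly to libraries of different treatment times.

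For PGRP-SA and Rel the change with JQ1 against the DMSO library of the same duration had opposite signs at 1 h and 20 h on the index scale, with counting intervals that left out 0. PGRP-SA had a log2 fold change of 1.14 at 20 h and -0.06 at 1 h, and Rel one of 1.31 at 20 h and -0.05 at 1 h. Against both DMSO libraries, the 1 h value was -0.02 for PGRP-SA and -0.02 for Rel. Their counting intervals then held 0 (-0.08 to 0.03 and -0.06 to 0.02), and both 1 h libraries lay between the DMSO libraries. With 1 library per time the difference was not tested. On the all-gene scale the 1 h values were 0.46 for PGRP-SA and 0.47 for Rel, so the signs were then the same.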

How the results depend on the processing

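Both the scaling and the choice of libraries changed the calls. When counts were scaled by 500 index genes, by total counts, by mitochondrially encoded genes, by TMM or by DESeq2 factors, edgeR called 0 of the 10 genes lower, and in the wider list it called 8, 4, 3, 0 and 0 lower, where 25.9%, 21.8%, 14.1%, 6.51% and 5.55% of all tested genes were lower. In that list 0 were higher with mitochondrially encoded genes and 2 each with TMM and DESeq2 factors. The fall of cact turned to 0.047 with TMM and 0.096 with DESeq2 factors. Of the 10 genes, those below 50% at 2 h numbered 1 with total counts, 0 with TMM and 0 with DESeq2 factors. At 4 h, 1 was below 50% with 500 index genes, with total counts and with either of TMM and DESeq2 factors, and 2 were above 200% with TMM or DESeq2 factors. With DESeq2 factors these 2 were Rel and pirk, and pirk rested on 13 reads, against 9 and 6 with DMSO. The shares of all tested genes past these limits at 2 and 4 h were not counted under these scalings, so the counts cannot be set against them. Under a minimum mean of 50, which leaves out pirk, the median of the list relative to all genes at 2 h was -0.037.

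Leaving out 1 library moved the lower calls among the 10 genes between 0 and 4, and those of the wider list between 0 (without either DMSO library, when the lone DMSO library is assumed to vary like the JQ1 libraries and edgeR called 0 of all genes) and 22 (without JQ1 20 h). The higher calls of the wider list ran from 0 to 1, and those of the 10 genes on the all-gene scale from 0 to 3. On that scale edgeR called 0 of all genes without JQ1 2 h, JQ1 4 h or either DMSO library. On the index scale, 0 of the 10 genes were called lower without JQ1 2 h (25.3% of all tested genes) and 1 without JQ1 4 h (30.6%). The 4 lower calls came without JQ1 20 h, where 64.3% of all tested genes were lower. The 3 higher calls on the all-gene scale also came without it, where 19.0% were higher. With treatment duration as a block, which keeps the libraries of 1 and 20 h, edgeR called 0 of all tested genes on both scales, and so 0 of the 10 genes and 0 lower and 0 higher genes of the wider list. On the all-gene scale the Wald test of DESeq2 called 2 of the 10 genes higher, where it called 12.7% of all tested genes higher. Apart from that block on duration, no paired analysis was possible because the labels number no replicates. The low counts of PGRP-SD and pirk in 5 of the 6 libraries limit what can be said of their early changes, and PGRP-SD had no adjusted p in DESeq2. The cause of these changes was not tested.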

Other observations

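The Toll pathway, the route below PGRP-SA and PGRP-SD, had a share of lower genes near that of all genes. Of 15 listed genes, 13 were tested, and 5 were lower and 0 higher in edgeR on the index scale, beside 44.3% and 1.43% of all tested genes. At an unadjusted p under 0.05, a limit at which the share of all tested genes was not counted, there were 6 and 0. The Wald test of DESeq2 gave 6 lower, where it called 49.99% of all tested genes, and 0 higher, where it called 1.91%. Without either DMSO library edgeR called 0 of all genes. At the receptor end, Myd88, an adaptor of the Toll receptor, had 810.0, 745, 757 and 940.2 scaled counts with JQ1 in order of time, against 1928 and 2008 with DMSO. Its log2 fold change of -1.28 ± 0.16 (SE) had an adjusted p in edgeR of 0.00463, and on the all-gene scale it was -0.64 with an adjusted p of 0.0366. The kinase gene pll (-1.11) and the NF-κB gene dl (-0.82) were called on the index scale only. The inhibitor gene cact was also called there (-0.54, adjusted p in edgeR of 0.0151), with a sign that turned on the all-gene scale (0.10). The ligand gene spz, named after its values were seen, had 34146 scaled counts at JQ1 20 h, against 6652 and 7189 with DMSO, and did not pass in edgeR.

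The gene nearest in pattern over the 6 libraries, by Pearson r of log2(scaled count + 1) among 6831 candidates, was Hsc70-3 (a chaperone of the endoplasmic reticulum) for Rel with an r of 0.999, Hmg-2 for imd (0.999), GILT1 for Tak1 (0.999), Taf10b for Dredd (0.996) and CG1317 for key (0.999). It was mnb for PGRP-LC (0.995), CG31717 for PGRP-SA (0.9999), sesB for PGRP-SD (0.997), CG5757 for PGRP-LB (0.9997) and NtR for pirk (0.992). The 6 libraries share a lane and the treatment times, and between 2 (pirk) and 124 (key) candidates reached an r over 0.99, so these names describe the libraries only.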
